A study of Mus musculus with 12 samples.

Results

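The genes described here are 9 of the 32285 genes counted in neonatal mouse liver: the selectins Sele and Selp, the adhesion molecules Icam1, Icam2 and Vcam1, the angiopoietin ligands Angpt1 and Angpt2, and the Tie receptors Tek and Tie1. They were chosen by name, as leukocyte adhesion and angiopoietin-Tie genes of the vessel wall, with earlier results of these data known. All 9 were found once by their symbols in the count tables.

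Single-cell RNA-seq was performed on the livers of 12 C57BL6/J mouse pups, 1 library per mouse, and 6 control mice were compared with 6 mice with phlebotomy-induced anemia (PIA). For PIA, 20 µL of blood per gram of body weight was drawn from the facial vein on postnatal days (P) 2, 4, 6, 8 and 10, whereas no blood was taken from control pups, which were pricked with a needle each day. The livers were taken at P11, digested with an enzyme mixture and loaded without a sort, so both groups share the handling, the digestion and the absence of any genetic change. The comparison asks how blood loss with its anemia changes these cells, and a drawn pup differs from a control pup in blood volume and in the draws themselves as well as in hematocrit, which cannot be told apart.

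Leukocytes leave the blood in steps. Selectins on the endothelium catch passing cells by their sugar-bearing ligands, and the immunoglobulin-family molecules ICAM and VCAM then hold them through integrins. E-selectin and VCAM-1 are classically made after cytokine signals that act through NF-kB, while P-selectin is also stored ready-made in endothelial cells and platelets. In the angiopoietin-Tie system, angiopoietin 1 activates the endothelial receptor Tie2 (the product of Tek) and keeps vessels quiet, angiopoietin 2 is an endothelial product that can oppose it, and Tie1 is a partner receptor. In the liver, leukocyte traffic runs largely through the sinusoids, thin fenestrated vessels whose endothelium is known for low selectin levels at rest.

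Sele and Selp lie on the same strand of chromosome 1 (GRCm38, GENCODE M21), at chr1:164048234-164057677 and chr1:164115264-164150026, with 57586 bp between them. Icam1 is at chr9:21015985-21028817 (+), Icam2 at chr11:106377656-106388075 (−) and Vcam1 at chr3:116109949-116129688 (−). Angpt1 is at chr15:42424723-42676977 (−), Angpt2 at chr8:18690263-18741562 (−), Tek at chr4:94739289-94874976 (+) and Tie1 at chr4:118471191-118490061 (−). Selp, Icam1, Vcam1, Angpt1 and Angpt2 overlap at least 1 gene on the opposite strand, Mcph1 in the case of Angpt2, and whether the counting used strand is not given in the sources used here, so reads of the partners may not be separable for these 5 genes.

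RefSeq promoters (GRCm38.p6, 250 bases before to 50 bases after the start that RefSeq gives) were at hand for 5 of the 9 genes: Sele, Selp, Icam1, Tek and Tie1. The RefSeq start is the GENCODE start for Sele, Selp and Tek, but lies 45 bases upstream of it for Icam1 and 212 bases downstream of it for Tie1, and distances below are from the RefSeq start. The 3 adhesion promoters are shown because these genes were called higher in sinusoidal-endothelial-like cells of anemic mice, as described below. Capitals mark GGAANNNCC on either strand, a form of the site that NF-kB proteins bind, and TATAAA on the gene's strand. The letters of the first motif were chosen after the sequences had been seen, so its presence in these promoters is not a test.
Sele, chr1:164047984-164048283 (+): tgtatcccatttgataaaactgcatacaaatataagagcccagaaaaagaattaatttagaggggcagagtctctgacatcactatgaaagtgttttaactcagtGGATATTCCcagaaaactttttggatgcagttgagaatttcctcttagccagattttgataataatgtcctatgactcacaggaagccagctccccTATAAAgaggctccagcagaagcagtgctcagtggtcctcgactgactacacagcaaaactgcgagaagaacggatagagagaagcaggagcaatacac
Selp, chr1:164115014-164115313 (+): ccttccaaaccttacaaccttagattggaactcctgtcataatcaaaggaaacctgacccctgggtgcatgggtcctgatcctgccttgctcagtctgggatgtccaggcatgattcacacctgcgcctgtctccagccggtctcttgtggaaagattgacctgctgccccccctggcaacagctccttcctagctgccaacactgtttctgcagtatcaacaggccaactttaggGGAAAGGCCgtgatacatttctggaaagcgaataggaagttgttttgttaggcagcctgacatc
Icam1, chr9:21015690-21015989 (+): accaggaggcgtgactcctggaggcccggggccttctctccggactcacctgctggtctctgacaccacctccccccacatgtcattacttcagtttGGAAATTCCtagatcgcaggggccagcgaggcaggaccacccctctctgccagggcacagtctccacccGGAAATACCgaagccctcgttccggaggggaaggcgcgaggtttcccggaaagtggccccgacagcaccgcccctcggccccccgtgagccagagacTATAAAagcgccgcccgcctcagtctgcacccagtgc
The Sele promoter holds GGAANNNCC 145 bases before the start and TATAAA 49 bases before it. In the Selp promoter GGAANNNCC begins 14 bases before the start, and TATAAA is not in this window. In the Icam1 promoter GGAANNNCC begins 153 and 84 bases before the start, and TATAAA begins 13 bases after it, which is still upstream of the GENCODE start. Neither motif is in the windows of Tek and Tie1. Among 32817 RefSeq mouse promoters of this length, 18.48% hold GGAANNNCC and 8.325% hold TATAAA, and a match of letters is not a measured binding site.

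After filtering, 206146 of 207537 barcodes remained, with 14184 to 21186 cells and 46252146 to 74545930 UMIs per mouse. Clusters were named from marker genes, with the 9 genes left out of the clustering, and 16 classes were named "like" a cell type. The sinusoidal-endothelial-like class held 22374 cells in 4 clusters, and its markers were higher there than in all other cells (Stab2 3864 against 324 CPM, counts scaled to the same UMI total in every mouse and class). The large-vessel-endothelial-like class held 2319 cells (Vwf 698 against 31.5 CPM), the stellate-like class 1550 cells (Lrat, the retinol-esterifying enzyme of stellate cells, 703 against 10.7 CPM) and the macrophage-like class 17592 cells (Clec4f, a Kupffer cell lectin, 2418 against 84.4 CPM). Of the cells, 28235 in 36 clusters stayed unnamed. The doublet score called 7.00% of the sinusoidal-endothelial-like, 30.6% of the large-vessel-endothelial-like and 36.3% of the stellate-like cells. Pairs of libraries shared 51 to 121 barcodes, at most 0.694% of the smaller library. By Y-linked and Xist expression, 2 control and 4 anemic mice were male, which is unequal between the groups.

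2 anemic mice stood apart in ways that touch the results. In the anemic group the stellate-like class held 41 cells in mouse 2 and 8 cells in mouse 3, against 91 to 258 in control mice. The classes also differed in make-up: cluster 2 held 38.8% of the sinusoidal-endothelial-like cells of control mice and 61.5% of those of anemic mice, and cluster 7 held 43.0% and 18.1%. In the macrophage-like class, cluster 3 held 64.9% of control and 39.8% of anemic cells, and cluster 16 held 8.12% and 38.0%. The fits were therefore repeated without anemic mice 2 and 3 and within these clusters, alternatives that were chosen after the data were seen, and their values are given where they bear on a result.

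Both endothelial classes carried the adhesion genes and the Tie receptors, whereas Vcam1 was highest in macrophage-like cells and Angpt1 in megakaryocyte-like cells. Levels are given as the mean CPM ± SD over all 12 mice. In the plot of mean levels by class, 8 of the 9 genes had a highest class that exceeded the next by the paired test over mice, and Angpt2 did not. Both classes of each pair were picked by their means in the same mice that were tested. No adjustment was made for that choice, so these p-values may be too low.

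**Figure D1:**
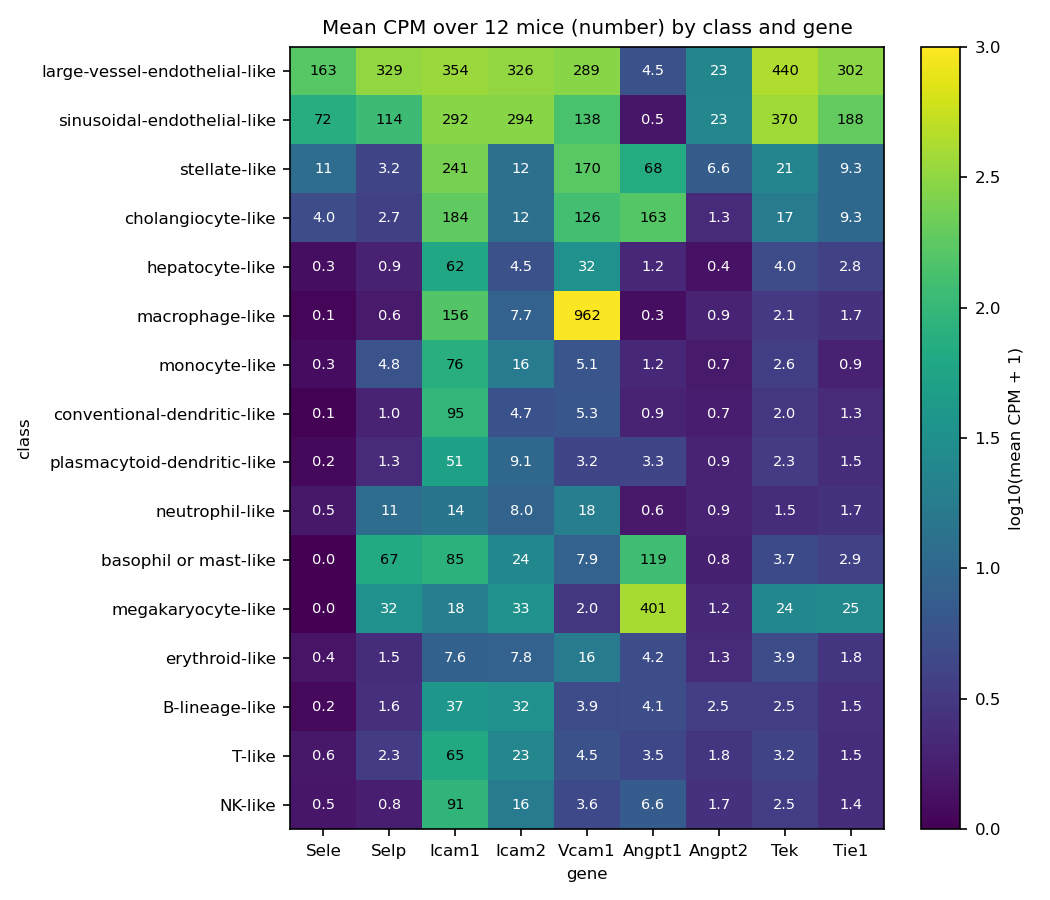
Mean CPM over the 12 mice for each of the 9 genes (columns) in each of the 16 named classes (rows), with the value printed in the cell and the color on a log10(mean CPM + 1) scale; levels are to be read down a column, within 1 gene. Sele, Selp, Icam1, Icam2, Angpt2, Tek and Tie1 have their 2 highest levels in the endothelial classes, Vcam1 its highest (962 CPM) in macrophage-like cells and Angpt1 its highest (401 CPM) in megakaryocyte-like cells.

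Among the selectins, Sele, which encodes E-selectin, reached 163 ± 60.1 CPM in large-vessel-endothelial-like cells and 72.3 ± 56.9 CPM in sinusoidal-endothelial-like cells. It was higher in the large-vessel class in 12 of 12 mice, by 1.49 ± 1.01 (SD) on the log2 scale (exact two-sided paired permutation test over all sign changes, p = 0.000488, the smallest they can give, adjusted over the 9 genes p = 0.0011). The third level, 10.7 ± 16.8 CPM in stellate-like cells, came from a range of 0 to 60.9 CPM that overlapped the range of the sinusoidal class. Selp, which encodes P-selectin, averaged 329 ± 80.9 CPM in the large-vessel class and 114 ± 85.1 CPM in the sinusoidal class, again higher in 12 of 12 mice (adjusted p = 0.0011 by the same permutation test). These SDs pool control and anemic mice, so they hold the anemia effect described below as well as the spread between mice. On the log2 scale the gap between the 2 classes was smaller in anemic than in control mice, by 1.44 for Sele and 1.95 for Selp. The test of these 2 values is given below. Outside the endothelium Selp stood at 67.2 ± 28.3 CPM in basophil-or-mast-like and 10.9 ± 2.81 CPM in neutrophil-like cells, and the megakaryocyte-like class, with 43 Selp UMIs in all, ranged from 0 to 90.2 CPM. The sinusoidal class, being larger, still held 53.5% of all Sele UMIs and 50.9% of all Selp UMIs, and the large-vessel class held 16.4% and 19.1%.

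Of the immunoglobulin-family genes, Icam1, the ligand of the leukocyte integrin LFA-1, was widely spread. It averaged 354 ± 42.0 CPM in large-vessel-endothelial-like, 292 ± 60.1 CPM in sinusoidal-endothelial-like, 241 ± 88.7 CPM in stellate-like and 156 ± 20.2 CPM in macrophage-like cells. The large-vessel level exceeded the sinusoidal level in 11 of 12 mice (adjusted p = 0.0015, permutation), while the ranges of the sinusoidal and stellate-like classes overlapped. Icam2, a constitutive endothelial relative of Icam1, averaged 326 ± 61.4 CPM in the large-vessel and 294 ± 58.2 CPM in the sinusoidal class, a difference seen in 10 of 12 mice (adjusted p = 0.0088, permutation), and the next class, megakaryocyte-like, had 32.9 ± 22.0 CPM. Vcam1, the ligand of the integrin VLA-4, was highest in macrophage-like cells at 962 ± 220 CPM, above the large-vessel level of 289 ± 150 CPM in 11 of 12 mice (adjusted p = 0.0015, permutation). Macrophage-like cells held 65.4% of all Vcam1 UMIs and the sinusoidal class 9.59%. Stellate-like (170 ± 104 CPM), sinusoidal-endothelial-like (138 ± 131 CPM) and cholangiocyte-like cells (126 ± 41.9 CPM) followed with overlapping ranges. Their medians were 144, 72.6 and 98.1 CPM in control mice and 125, 130 and 148 CPM in anemic mice, so no order is read from them.

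The angiopoietin ligands were placed apart from each other. Angpt1, the activating ligand, averaged 401 ± 175 CPM in megakaryocyte-like cells (132 cells, 2 to 30 per mouse), 163 ± 57.9 CPM in cholangiocyte-like cells, 119 ± 56.8 CPM in basophil-or-mast-like cells and 68.2 ± 31.1 CPM in stellate-like cells. The first of these exceeded the second in 12 of 12 mice (adjusted p = 0.0011, permutation), and the ranges of neighbouring classes from the second to the fourth overlapped. The doublet score called 83.4% of the 698 cholangiocyte-like cells. With called doublets left out, Angpt1 averaged 122 CPM there and 408 CPM in megakaryocyte-like cells, which were higher in 10 of 12 mice (adjusted p = 0.0088, permutation). In sinusoidal-endothelial-like cells Angpt1 was near zero, at 0.522 ± 0.447 CPM. Angpt2, by contrast, averaged 23.4 ± 25.3 CPM in sinusoidal-endothelial-like and 22.6 ± 13.4 CPM in large-vessel-endothelial-like cells, and 6 of 12 mice were higher in the first (p = 0.780, exact paired permutation test). The sinusoidal class held 51.5% of all Angpt2 UMIs.

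The receptor genes Tek and Tie1 followed the endothelium. Tek averaged 440 ± 68.6 CPM in the large-vessel and 370 ± 54.5 CPM in the sinusoidal class, higher in the first in 11 of 12 mice (adjusted p = 0.0025, permutation). Tie1 averaged 302 ± 45.5 and 188 ± 25.6 CPM, higher in the large-vessel class in 12 of 12 mice, by 0.68 ± 0.07 (SD) on the log2 scale (adjusted p = 0.0011, permutation). The ranges of the 2 classes did not overlap for Tie1. The next class, megakaryocyte-like, had 24.1 ± 18.5 CPM of Tek and 25.4 ± 23.7 CPM of Tie1.

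In anemia, both selectins rose about 4-fold in sinusoidal-endothelial-like cells, and Icam1, Vcam1 and Angpt2 rose as well. Tek and Tie1, the receptors, as well as Icam2 and Angpt1, did not pass the test there. In all, 5 of the 9 genes were called by edgeR's quasi-likelihood test on UMIs summed per mouse (adjusted over all genes of the class, p under 0.05), all higher in anemia, beside 19.5% of all 16099 genes tested in this class (8.39% higher and 11.1% lower). DESeq2 called the same 5 genes.

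**Figure D2:**
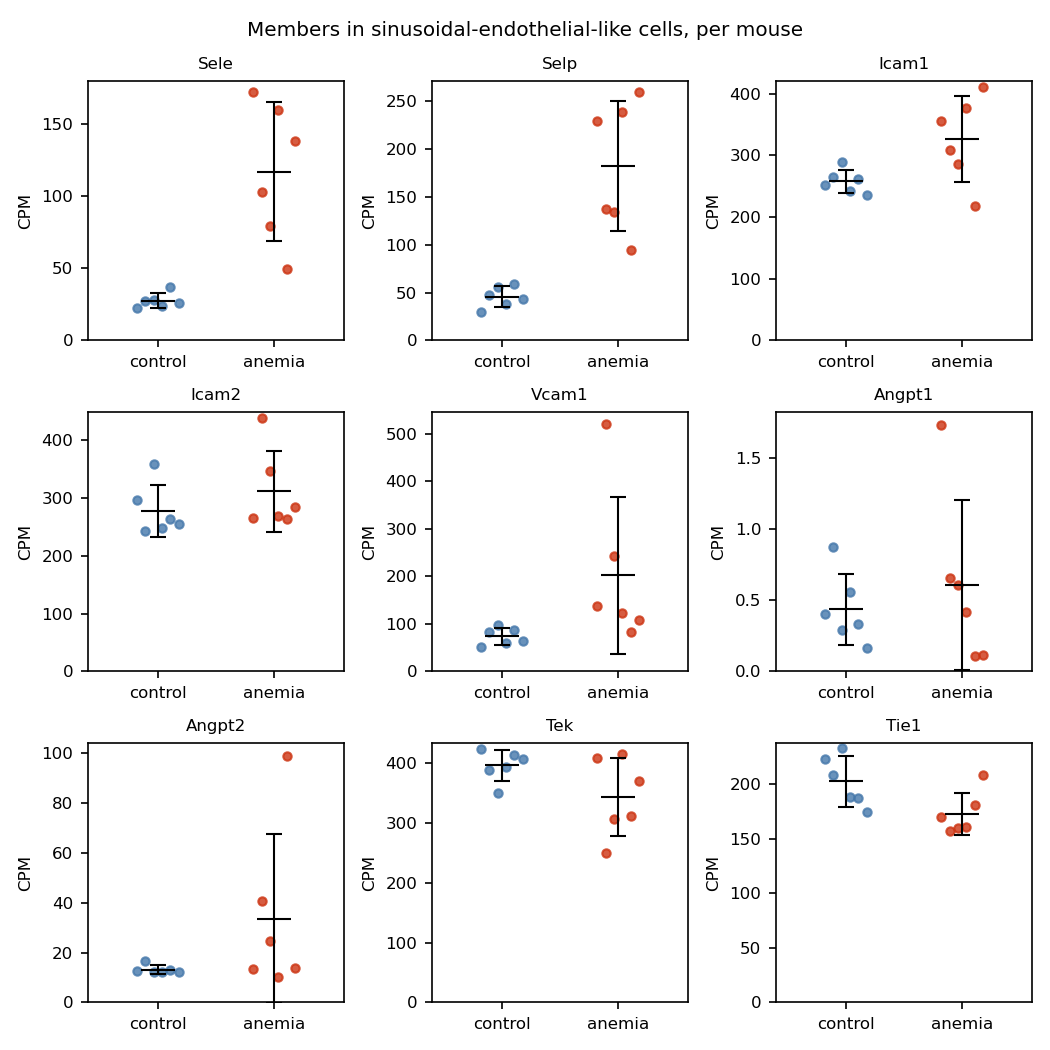
CPM of each of the 9 genes in sinusoidal-endothelial-like cells of control (blue) and anemic (red) mice; points are mice (6 per group), and bars are the mean ± SD, ending at 0 where the SD would go below it. For Sele and Selp every anemic mouse lies above every control mouse, and the highest anemic value stands apart for Vcam1 (520 CPM, mouse 2) and Angpt2 (99.0 CPM, mouse 5).

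Sele in the sinusoidal class ranged from 22.6 to 36.8 CPM in control mice (median 26.8) and from 49.2 to 172 CPM in anemic mice (median 121). The groups did not overlap, as was the case, in the higher direction, for 2.25% of all genes tested. Sele rose from 27.6 ± 4.96 to 117 ± 48.0 CPM (SD over the 6 mice of each group), and the log2 fold change was 2.21 ± 0.25 (SE, edgeR, adjusted p = 4.98e-05). Selp ranged from 29.3 to 59.1 CPM in control mice (median 45.5) and from 94.8 to 259 CPM in anemic mice (median 183), again without overlap. It rose from 45.6 ± 11.0 to 182 ± 68.1 CPM, a log2 fold change of 2.12 ± 0.24 (edgeR, adjusted p = 4.52e-05). Anemic mouse 5 had the lowest level of both selectins in its group, and mice 1, 4 and 6 had the highest levels. Without anemic mice 2 and 3 the log2 fold changes were 2.35 ± 0.25 for Sele and 2.28 ± 0.23 for Selp.

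The share of cells with a UMI gave the same order. With every cell thinned to 1000 UMIs, which left out 951 control and 900 anemic cells with fewer, Sele was seen in 1.01 to 2.32% of the sinusoidal-endothelial-like cells of control mice (median 1.70%) and in 2.75 to 8.75% of those of anemic mice (median 6.58%). Without thinning the medians were 6.19% and 20.7%, at median depths of 3497 and 4358 UMIs per cell. For Selp the thinned shares were 1.79 to 3.65% in control and 4.90 to 11.0% in anemic mice. In B-lineage-like cells, which should lack E-selectin, the thinned share of cells with Sele was at most 0.0291% in control and 0.162% in anemic mice (median depths 1524 and 1624 UMIs), and that of cells with Selp was at most 0.184% and 0.542%.

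Vcam1 in the sinusoidal class ranged from 51.6 to 98.5 CPM in control mice (median 72.6) and from 83.4 to 520 CPM in anemic mice (median 130). 5 of the 6 anemic mice lay above the highest control mouse, and mouse 2 lay far above the other anemic mice, the next of which had 242 CPM. The log2 fold change was 1.60 ± 0.39 (edgeR, adjusted p = 0.0109). It was 1.01 without anemic mouse 2 and 0.73 ± 0.17 without anemic mice 2 and 3 (adjusted p = 0.00913). Icam1 ranged from 236 to 289 CPM in control mice (median 256) and from 219 to 410 CPM in anemic mice (median 332), and 4 anemic mice lay above and 1 below the control range. It rose by a log2 fold change of 0.47 ± 0.12 (edgeR, adjusted p = 0.0167). Icam2 ranged from 243 to 359 CPM in control and from 263 to 437 CPM in anemic mice, with a log2 fold change of 0.30 ± 0.14 (edgeR, adjusted p = 0.161). Without control mouse 3 it was 0.41 ± 0.14 and was called (adjusted p = 0.0496).

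The rise of Angpt2 depended on 1 mouse more than on the others. It ranged from 12.3 to 16.6 CPM in control mice (median 12.4) and from 10.0 to 99.0 CPM in anemic mice (median 19.2), with 3 anemic mice above and 1 below the control range. The log2 fold change was 1.47 ± 0.47 (edgeR, adjusted p = 0.0386), and it was 0.73 ± 0.30 without anemic mouse 5 (adjusted p = 0.111). Leaving out each mouse in turn removed the call in 8 of 12 fits, as did a fit with Y-linked expression as a covariate (1.31 ± 0.51, adjusted p = 0.0928). A fit with a block for the replicate number also removed it (1.02 ± 0.35, adjusted p = 0.0636). Angpt2 was not called without anemic mice 2 and 3 either (1.46 ± 0.51, adjusted p = 0.0584). Angpt1 in this class gave 64 UMIs over all mice, with a log2 fold change of 0.61 ± 0.58 (edgeR, adjusted p = 0.488).

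Of the receptors, Tek ranged from 351 to 424 CPM in control mice (median 400.4) and from 250.2 to 415 CPM in anemic mice (median 341), and 3 anemic mice lay below the control range. The log2 fold change was −0.08 ± 0.10 (edgeR, adjusted p = 0.630). Tie1 ranged from 174 to 234 CPM in control and from 157 to 209 CPM in anemic mice, with a log2 fold change of −0.10 ± 0.09 (edgeR, adjusted p = 0.439). CPM and fitted values differ here because edgeR's TMM scaling moved the median of all genes by 0.113 on the log2 scale in this class, towards higher values in anemia. Without TMM the same 5 genes were called, with lower log2 fold changes.

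The calls of Sele and Selp were also made within each of the 2 largest clusters of the sinusoidal class, whose shares differed between the groups. Within cluster 2, 5 of 8 genes tested were called (19.1% of all genes there), the same 5 as in the whole class. Sele changed by a log2 fold change of 2.04 ± 0.29 (edgeR, adjusted p = 0.000278) and Selp by 1.92 ± 0.28 (adjusted p = 0.000325). Within cluster 7, 2 of 8 genes tested were called (13.3% of all genes there): Sele by 1.34 ± 0.23 (adjusted p = 0.000361) and Selp by 1.75 ± 0.24 (adjusted p = 3.12e-05). Icam1 had a log2 fold change of 0.44 ± 0.14 in cluster 2 (adjusted p = 0.0388) and of −0.09 ± 0.11 in cluster 7 (adjusted p = 0.673). Vcam1 had 1.51 ± 0.37 in cluster 2 (adjusted p = 0.0107) and 0.37 ± 0.28 in cluster 7 (adjusted p = 0.432). Angpt2 was at 1.23 ± 0.43 in cluster 7 (adjusted p = 0.0599). Cluster 2 had the higher control levels of Sele and Icam1: its control means were 35.9 ± 8.42 CPM of Sele and 289 ± 29.4 CPM of Icam1, against 14.5 ± 3.78 and 193.5 ± 16.3 CPM in cluster 7. For Icam2 the order was the opposite, 249 ± 35.8 CPM in cluster 2 and 324 ± 43.2 CPM in cluster 7. Differences between the clusters in the response were not tested.

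**Figure D3:**
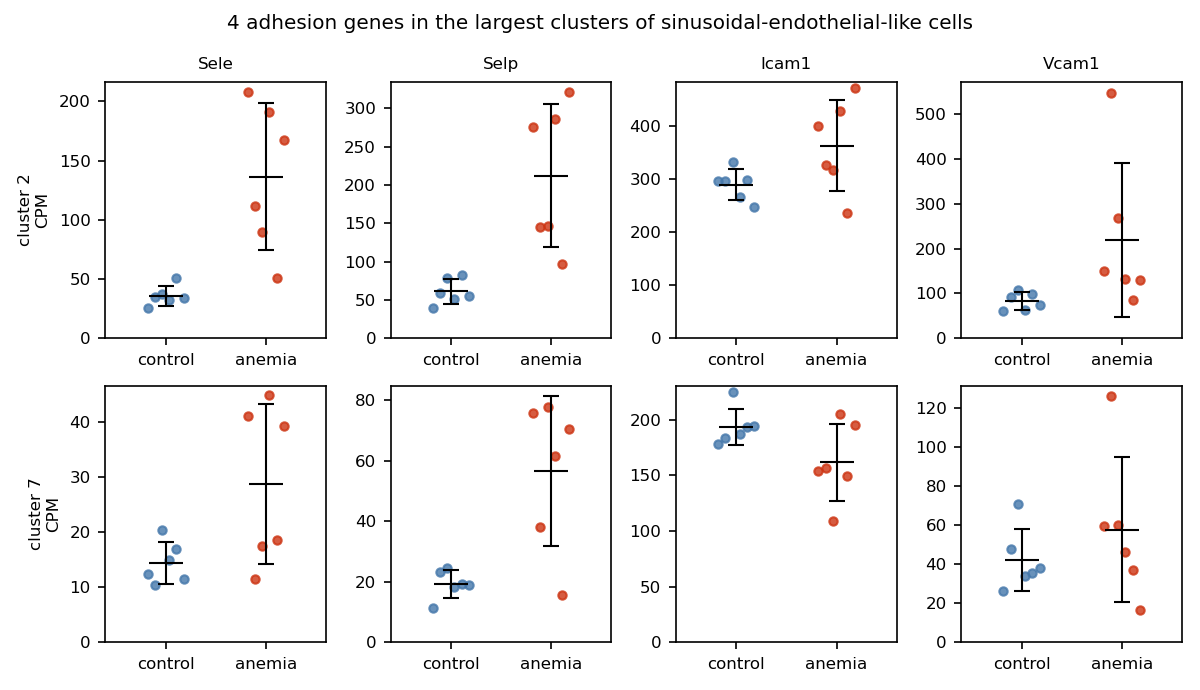
CPM of Sele, Selp, Icam1 and Vcam1 per mouse in cluster 2 (top) and cluster 7 (bottom), the largest clusters of sinusoidal-endothelial-like cells, in control (blue) and anemic (red) mice; points are mice (6 per group) and bars are the mean ± SD. Selp in cluster 2 has no overlap of the groups, as 2.23% of all genes there had none in the higher direction, and Icam1 in cluster 7 has its anemic mean (161.5 CPM) below its control mean (193 CPM).

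Other genes moved with the selectins in this class. Of the 9 large-vessel markers, none of which was at 0, the summed level was 3890 to 5242 CPM in control and 11470 to 15490 CPM in anemic mice. Most of it was Fabp4, a fatty-acid-binding protein, at 3496 to 4768 and 10960 to 15030 CPM. Without Fabp4 the sum was 352 to 474 and 463 to 602 CPM. Vwf, the large-vessel clotting protein stored together with P-selectin, was at 32.8 to 40.6 and 136 to 299 CPM, while Fbln2, another large-vessel marker, was at 18.3 to 27.3 and 9.89 to 20.8 CPM. The summed erythroid markers were 1388 to 5977 CPM in control and 7431 to 14720 CPM in anemic mice, the summed hepatocyte markers were 1578 to 2561 and 276 to 1363 CPM, and the median UMIs per cell were 2950 to 3710 and 4019 to 5140. The part of these shifts in the results on the 9 genes was not tested.

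In large-vessel-endothelial-like cells, 0 of the 8 genes tested were called by edgeR, beside 0.815% of all genes tested there. DESeq2 called 0 as well, and 1 gene, Sele, had an unadjusted p under 0.05. Sele ranged from 58.1 to 197 CPM in control mice (median 134) and from 96.4 to 255 CPM in anemic mice (median 206), with 3 anemic mice above the control range. Its log2 fold change was 0.61 ± 0.25 (edgeR, adjusted p = 0.349). Selp ranged from 223 to 429 CPM in control mice (median 338) and from 195 to 453 CPM in anemic mice (median 344), with a log2 fold change of 0.09 ± 0.19 (edgeR, adjusted p = 0.940). The Selp levels of anemic sinusoidal-endothelial-like cells (94.8 to 259 CPM) thus reached into the range of this class. Icam1 had a log2 fold change of 0.20 ± 0.10, Icam2 of 0.24 ± 0.13, Vcam1 of 0.45 ± 0.32, Angpt2 of 0.58 ± 0.41, Tek of 0.02 ± 0.13 and Tie1 of −0.14 ± 0.11. Without anemic mice 2 and 3 the value of Vcam1 was −0.01 ± 0.27. The percentage of these cells called doublets was 8.55 to 40.2% in control and 7.17 to 80.25% in anemic mice. With called doublets left out, none of the genes was called (0.309% of all genes there). Sele was then at 0.82 ± 0.33 (edgeR, adjusted p = 0.375), Selp at 0.02 ± 0.26 and Vcam1 at 0.71 ± 0.36. Angpt2 was at 0.93 ± 0.47, Tek at −0.04 ± 0.15 and Tie1 at −0.27 ± 0.14. Angpt1 was below the minimum count.

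**Figure D4:**
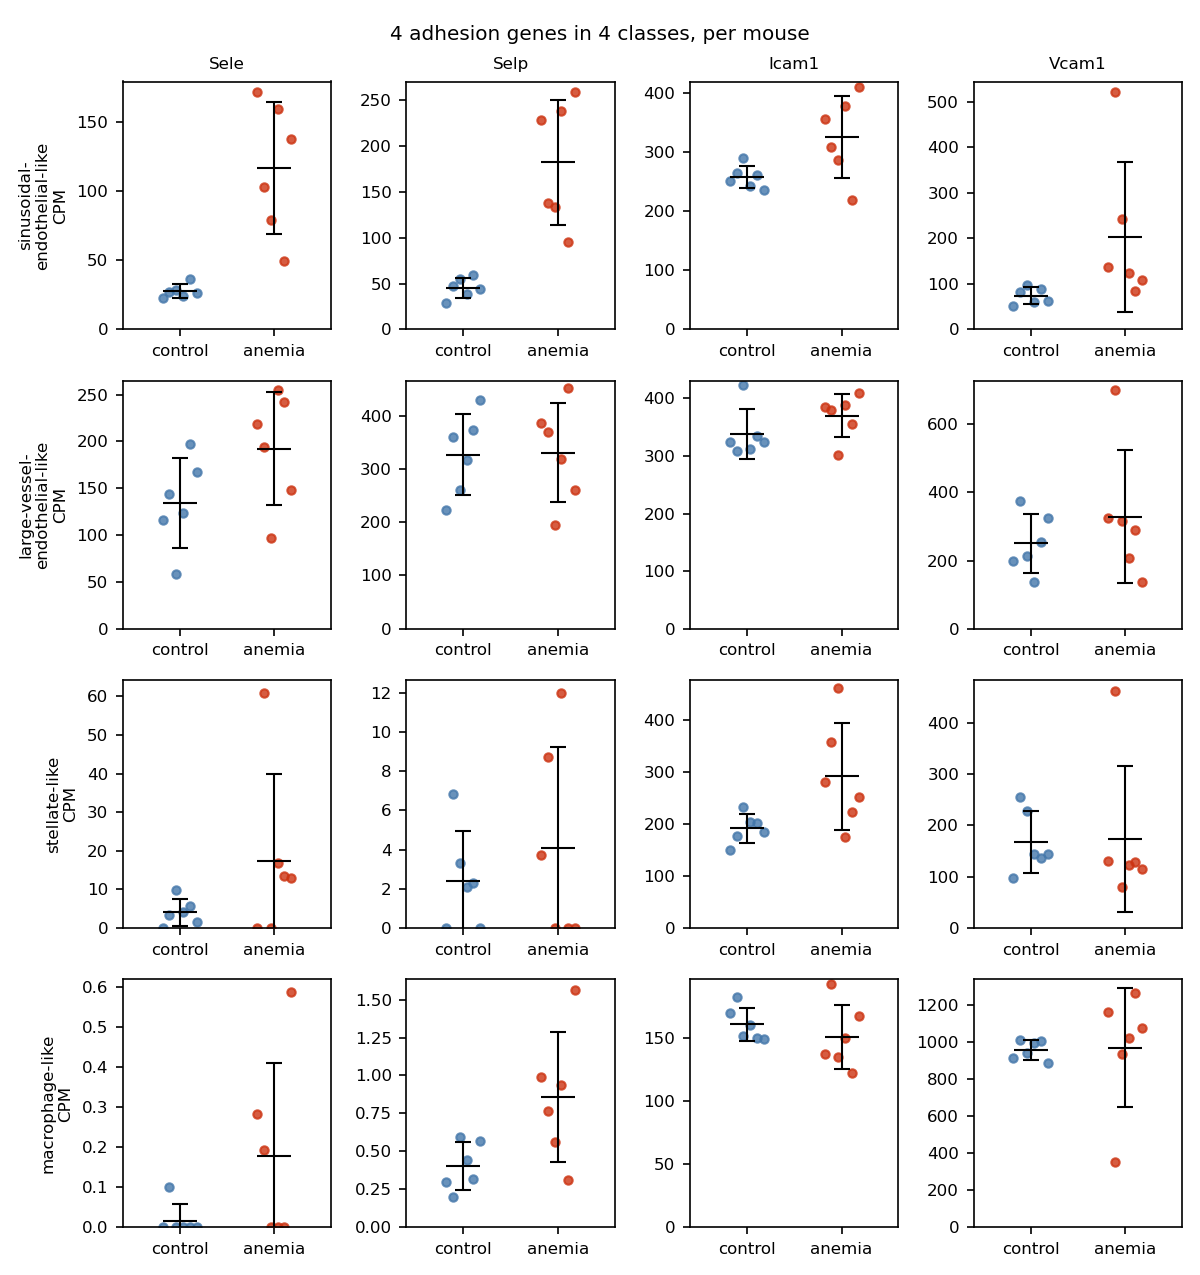
CPM of Sele, Selp, Icam1 and Vcam1 per mouse in 4 classes (rows), in control (blue) and anemic (red) mice; points are mice (6 per group), bars are the mean ± SD, ending at 0 where the SD would go below it, and each panel has its own CPM axis from 0. The groups are apart only for Sele and Selp in sinusoidal-endothelial-like cells, and Selp in large-vessel-endothelial-like cells spans 223 to 429 CPM in control and 195 to 453 CPM in anemic mice.

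In stellate-like cells, the vitamin A-storing pericytes of the sinusoid, 0 of the 6 genes tested were called (1.72% of all genes there), by DESeq2 likewise 0, and 2 genes had an unadjusted p under 0.05. The nearest was Angpt1, which ranged from 57.6 to 117 CPM in control mice (median 96.1) and from 20.0 to 67.0 CPM in anemic mice (median 46.3). 5 of the 6 anemic mice lay below the control range. Its log2 fold change was −0.80 ± 0.23 (edgeR, adjusted p = 0.0786), from 436 UMIs in all. It was −0.88 ± 0.22 without TMM scaling (adjusted p = 0.0423) and −0.76 ± 0.23 without anemic mice 2 and 3 (adjusted p = 0.0856), so the call depended on the setting. With called doublets left out it was −0.52 ± 0.26 (adjusted p = 0.446). Icam1 ranged from 150.2 to 233 CPM in control and from 175 to 460.1 CPM in anemic mice, the highest of which was the mouse with 8 cells. Its log2 fold change was 0.57 ± 0.18 (edgeR, adjusted p = 0.149), and 0.38 ± 0.16 without anemic mice 2 and 3. Vcam1 averaged 168 ± 60.6 CPM in the control group and 173 ± 142 CPM in anemia. The summed stellate markers of this class were 21970 to 27560 CPM in control and 6641 to 25530 CPM in anemic mice. The median UMIs per cell were 2934 to 3362 and 1134 to 3398. The part of both in these results was not tested. The percentage of stellate-like cells called doublets was 21.6 to 39.3% in control and 44.9 to 75.0% in anemic mice. With called doublets left out, the log2 fold change was 0.16 ± 0.22 for Icam1 (edgeR, adjusted p = 0.887) and −0.72 ± 0.25 for Vcam1 (adjusted p = 0.123), against 0.07 ± 0.31 for Vcam1 with them.

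In macrophage-like cells, 0 of the 7 genes tested were called (2.95% of all genes there), DESeq2 called 0, and 1 gene, Selp, had an unadjusted p under 0.05 at levels of at most 1.56 CPM. Vcam1, the gene of this set with its highest level in macrophages, ranged from 884 to 1009.5 CPM in control mice (median 966) and from 354 to 1262 CPM in anemic mice (median 1047). 4 anemic mice lay above the control range and mouse 2 lay far below it. The log2 fold change was 0.07 ± 0.21 (edgeR, adjusted p = 0.874), and 0.27 ± 0.08 without anemic mice 2 and 3 (adjusted p = 0.0927). Within cluster 3, the largest macrophage-like cluster of both groups, Vcam1 was at 915 to 1072 CPM in control and 1107 to 1335 CPM in anemic mice, without overlap (0.75% of all genes there, in the higher direction), and its log2 fold change was 0.28 ± 0.10 (edgeR, adjusted p = 0.146, where 3.83% of all genes were called). Within cluster 16 it was at 621 to 867 and 349.9 to 950.1 CPM (0.01 ± 0.19, where 0.0611% of all genes were called). Icam1 had a log2 fold change of −0.03 ± 0.12 in the class (adjusted p = 0.923). Tie1 stood at 1.90 to 2.19 CPM in control and 0.782 to 1.88 CPM in anemic mice, which did not overlap, as in the lower direction 2.25% of all genes did not, with a log2 fold change of −0.40 ± 0.21 (edgeR, adjusted p = 0.286).

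Whether the response differed between classes was tested on each mouse's difference of log2 CPM between 2 classes. Of 38 tests over genes and pairs of classes, 0 passed after adjustment (exact two-sided permutation test over all splits of the 12 mice into 6 and 6, smallest p 0.00216), and 10 had an unadjusted p under 0.05. The 3 lowest adjusted p-values were each 0.0548. The anemia effect on Selp was larger in sinusoidal than in large-vessel-endothelial-like cells by 1.95 (p = 0.00433, exact permutation), and that on Sele by 1.44 (p = 0.00433, exact permutation). The effect on Vcam1 was larger in sinusoidal-endothelial-like than in stellate-like cells by 1.30 (p = 0.00216, exact permutation). With 2 UMIs added in place of 0.5, these 3 differences and that of Selp between sinusoidal-endothelial-like and macrophage-like cells passed (lowest adjusted p = 0.0411). The last rests on 63 Selp UMIs in macrophage-like cells, at most 1.56 CPM. With 0.5 UMI added its adjusted p was 0.103 (exact permutation). At such counts the UMIs added change the log2 values themselves. The adjustment also ties all 38 tests together, so no class difference is read from this setting.

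**Figure D5:**
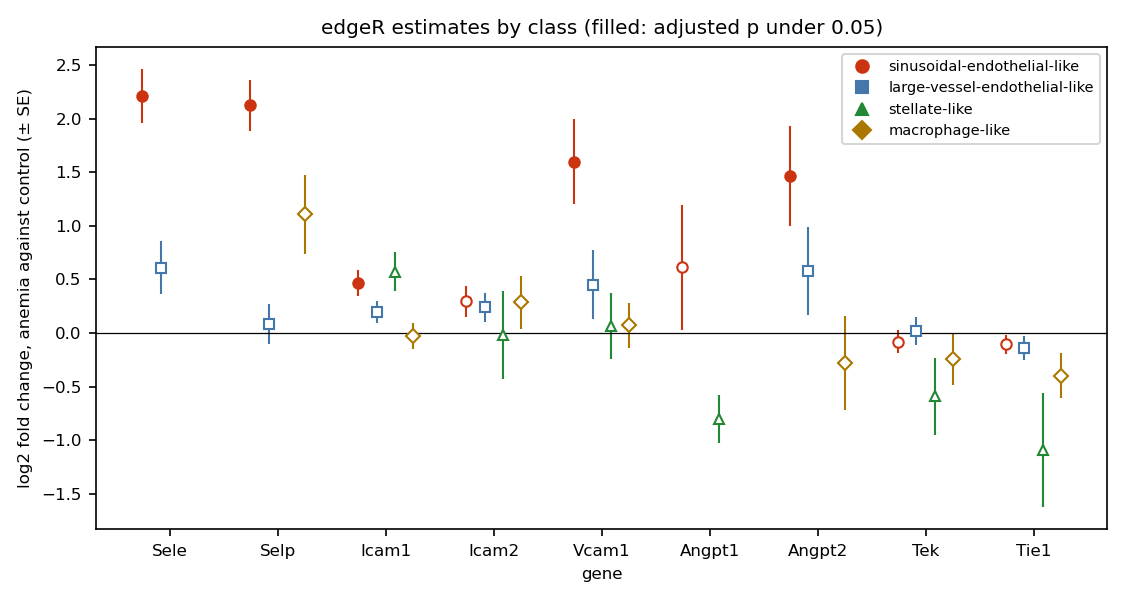
Log2 fold change of anemia against control (edgeR estimate ± SE) for each of the 9 genes in the 4 classes where it was tested; filled symbols have an adjusted p under 0.05. The 5 filled symbols are all of sinusoidal-endothelial-like cells (Sele, Selp, Icam1, Vcam1 and Angpt2), and Angpt1 in stellate-like cells is at −0.80 with an open symbol.

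In the other 12 named classes, 2 of 54 tests of these genes passed, both in hepatocyte-like cells, where 47.3% of all genes were called and 24.4% were called lower. Icam1 there ranged from 64.7 to 109 CPM in control and from 12.1 to 68.6 CPM in anemic mice, with 5 anemic mice below the control range. It fell, with a log2 fold change of −1.42 ± 0.29 (edgeR, adjusted p = 0.000604). Vcam1 ranged from 31.8 to 53.3 CPM in control and from 14.7 to 32.2 CPM in anemic mice, and fell with a log2 fold change of −0.99 ± 0.15 (adjusted p = 5.54e-05). TMM scaling moved the median of all genes by 0.226 on the log2 scale in this class, and both genes were called lower with and without it. The clusters of this class differed in level and in share. Cluster 23, with 149 CPM of Icam1 and 55.9 CPM of Vcam1, held 28.2% of control and 11.8% of anemic hepatocyte-like cells (a division examined after the data were seen), whereas clusters 12, 21, 27 and 32 had 5.4 to 8.9 CPM of Icam1 and 11.3 to 19.2 CPM of Vcam1. The doublet score called 33.3% of the cells of cluster 23 and 3.57 to 11.95% of those of the other 4 clusters. Their median UMIs per cell were 3328 in cluster 23 and 724 to 2588 in the others. Within cluster 23 neither gene was called (4.8% of all genes there): Icam1 had a log2 fold change of −0.35 ± 0.31 (edgeR, adjusted p = 0.666) and Vcam1 of −0.64 ± 0.21 (adjusted p = 0.0926). Within the other 4 clusters together (12.8% of all genes called) Vcam1 was called, at −0.57 ± 0.14 (edgeR, adjusted p = 0.0103), and Icam1 was not (−0.81 ± 0.30, adjusted p = 0.0902). The call of Icam1 was thus not made within these clusters. In the same cells the summed sinusoidal-endothelial markers were 86.3 to 199 CPM in control and 53.6 to 132 CPM in anemic mice, and the summed stellate markers 110.2 to 153 and 31.4 to 85.2 CPM. The summed macrophage markers were 87.8 to 276 and 96.1 to 333 CPM, the large-vessel markers 79.0 to 135 and 151 to 328 CPM, and the erythroid markers 2078 to 9203 and 8862 to 37580 CPM, with none of these 5 lists' genes at 0. The large-vessel list includes Fabp4, whose part in this sum was not separated. The hepatocyte markers themselves were 122500 to 135400 and 83440 to 119900 CPM, and the monocyte markers 1046 to 1307 and 512 to 681 CPM. The B cell markers were 166 to 231 and 71.2 to 114 CPM, and the progenitor markers 139 to 156 and 74.6 to 108 CPM. The part of these markers in the 2 results was not tested. In the remaining 11 classes the share of all genes called was 2.28% in B-lineage-like, 1.41% in conventional-dendritic-like, 0.914% in neutrophil-like, 0.818% in plasmacytoid-dendritic-like, 0.781% in basophil-or-mast-like, 0.755% in NK-like, 0.376% in T-like, 0.362% in erythroid-like, 0.28% in monocyte-like, 0.0301% in cholangiocyte-like and 0% in megakaryocyte-like cells. Among the 9 genes the lowest adjusted p was 0.0735, for Tek in B-lineage-like cells (−0.71). Angpt1 in megakaryocyte-like cells, its highest class, ranged from 221 to 533 CPM in control and from 188 to 817 CPM in anemic mice (log2 fold change 0.08 ± 0.28, edgeR, adjusted p = 1.00).

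The partners of these genes were followed by lists of their pathway. Of the leukocyte ligands and integrins, 12 of 16 were tested in sinusoidal-endothelial-like cells and 2 fell, beside 11.1% of all genes (list median log2 fold change 0.06, all genes 0.01). Selplg, which encodes the P-selectin ligand PSGL-1, was at 41.9 to 46.1 CPM in control and 14.9 to 21.7 CPM in anemic mice, a log2 fold change of −1.05 ± 0.08 (edgeR, adjusted p = 1.10e-06). Itgb7, an integrin chain that binds VCAM-1 and MAdCAM-1, fell from 14.3 ± 1.45 to 7.89 ± 2.30 CPM (−0.75 ± 0.18, adjusted p = 0.0113). Selplg and Itgb7 were also called lower within cluster 2, within cluster 7 and without anemic mice 2 and 3 (Selplg −1.16 to −0.98, Itgb7 −0.93 to −0.82). Both genes are known from leukocytes. In the same cells the summed T cell markers were 17.5 to 27.2 CPM in control and 7.31 to 13.7 CPM in anemic mice, the monocyte markers 24.1 to 43.6 and 37.5 to 157 CPM and the neutrophil markers 41.4 to 90.4 and 45.1 to 156 CPM, none of whose genes was at 0, and their part in these 2 results was not tested. In macrophage-like cells 1 of 16 was called, beside 2.95% of all genes (list median 0.27, all genes 0.04): Itgam, the CD11b chain of an integrin that binds ICAM-1, which rose from 30.6 ± 7.04 to 79.7 ± 40.5 CPM (1.48 ± 0.30, edgeR, adjusted p = 0.0175). Its log2 fold change was 0.85 ± 0.16 without anemic mice 2 and 3 (adjusted p = 0.0100), 1.15 ± 0.26 within cluster 3 (adjusted p = 0.0172) and 1.28 ± 0.27 within cluster 16 (adjusted p = 0.0919). In the same class the summed monocyte markers were 1050 to 1290 CPM in control and 887 to 2467 CPM in anemic mice, and the neutrophil markers 49.2 to 91.7 and 43.0 to 192 CPM, with no gene of either list at 0, and their part in this result was not tested. None of the list was called in the large-vessel (11 tested) and stellate-like (10 tested) classes, where 0.815% and 1.72% of all genes were called.

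Of the other endothelial adhesion and junction genes, 1 of 11 tested rose in sinusoidal-endothelial-like cells, beside 8.39% of all genes (list median 0.05), namely Jam2, a junctional adhesion molecule, by 0.39 ± 0.09 (edgeR, adjusted p = 0.00779). In large-vessel-endothelial-like cells 1 of 11 was called, beside 0.815% of all genes (list median 0.00), Alcam, an adhesion molecule of the immunoglobulin family, which fell from 233 ± 81.6 to 97.1 ± 31.2 CPM (−1.16 ± 0.24, edgeR, adjusted p = 0.0282), and was not called without anemic mice 2 and 3 (−0.99 ± 0.25, adjusted p = 0.105). In these cells the summed hepatocyte markers were 1522 to 2536 CPM in control and 317 to 1401 CPM in anemic mice, the megakaryocyte markers 32.3 to 63.2 and 65.5 to 113 CPM and the basophil or mast cell markers 49.4 to 87.0 and 93.6 to 148 CPM, and their part in this result was not tested. Alcam rose in macrophage-like cells from 12.4 ± 1.56 to 22.3 ± 8.49 CPM (0.94 ± 0.24, adjusted p = 0.0467), as did the junction gene F11r (0.50 ± 0.07, adjusted p = 0.00345), the 2 genes called of 10 tested there, beside 2.95% of all genes. F11r was also called without anemic mice 2 and 3 (0.52) and within cluster 3 (0.51), and not within cluster 16 (0.38 ± 0.19, adjusted p = 0.917). Alcam was called in none of these fits, and its log2 fold change was 0.56 ± 0.19 without anemic mice 2 and 3 (adjusted p = 0.116) but −0.33 ± 0.25 within cluster 3 (adjusted p = 0.527) and −0.17 ± 0.38 within cluster 16 (adjusted p = 0.987). In macrophage-like cells the summed large-vessel markers were 88.6 to 101 CPM in control and 197 to 287 CPM in anemic mice. This list includes Fabp4, most of its sum in sinusoidal-endothelial-like cells, and the part of Fabp4 here was not separated. The summed sinusoidal-endothelial markers were 182 to 235 and 176 to 264 CPM. The T cell markers were 16.2 to 20.1 and 10.2 to 12.3 CPM there. The part of these lists in these 2 results was not tested. Of 9 tested in stellate-like cells, none was called (1.72% of all genes).

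Of the angiopoietin-Tie pathway genes, 1 of 12 tested in sinusoidal-endothelial-like cells was called, beside 19.5% of all genes (list median 0.04): Pik3r1, a regulatory subunit of PI3-kinase downstream of Tie2, which rose by 0.26 ± 0.08 (edgeR, adjusted p = 0.0387). It was called without anemic mice 2 and 3 (0.33), but neither within cluster 2 (0.25 ± 0.10, adjusted p = 0.0861) nor within cluster 7 (0.34 ± 0.11, adjusted p = 0.0513). In macrophage-like cells Klf2, a flow-responsive transcription factor, fell from 878 ± 125 to 542 ± 136 CPM (−0.64 ± 0.15, adjusted p = 0.0371), 1 of 12 tested beside 2.95% of all genes. It was also called without anemic mice 2 and 3 (−0.47) and within cluster 3 (−0.63), and not within cluster 16 (−0.32 ± 0.16, adjusted p = 0.660). The part of the large-vessel and T cell markers of this class, given above, in the result on Klf2 was not tested. In the large-vessel and stellate-like classes none of 11 tested was called, beside 0.815% and 1.72% of all genes.

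Of the NF-kB pathway and target genes, 16 of 16 were tested in sinusoidal-endothelial-like cells, 4 rose and none fell (list median 0.25, all genes 0.01, 8.39% of all genes higher). Il1r1, the interleukin-1 receptor, rose from 122 ± 13.9 to 304 ± 52.2 CPM without overlap of the groups (1.44 ± 0.12, edgeR, adjusted p = 2.20e-06). Tnfaip3, which encodes the feedback inhibitor A20, rose from 46.0 ± 4.51 to 77.5 ± 21.4 CPM (0.88 ± 0.17, adjusted p = 0.00306). Nfkbia, the gene of the inhibitor IkBa, rose by 0.38 ± 0.10 (adjusted p = 0.0114), and Nfkb1 by 0.24 ± 0.07 (adjusted p = 0.0195). All 4 were also called higher without anemic mice 2 and 3 and within cluster 2. Within cluster 7 Il1r1 was called higher (1.26 ± 0.12, adjusted p = 2.42e-07), whereas the other 3 were not called and had negative values, −0.27 ± 0.12 for Tnfaip3 (adjusted p = 0.166), −0.22 ± 0.09 for Nfkbia (adjusted p = 0.125) and −0.12 ± 0.08 for Nfkb1 (adjusted p = 0.382). Il1r1 also rose in stellate-like cells, from 137 ± 17.7 to 286 ± 77.9 CPM (1.19 ± 0.18, adjusted p = 0.000327), together with Birc3, an apoptosis inhibitor (0.86 ± 0.21, adjusted p = 0.0355), 2 of 15 tested beside 1.72% of all genes. Without anemic mice 2 and 3 Il1r1 was called (1.19 ± 0.15) and Birc3 was not (0.67 ± 0.19, adjusted p = 0.0641). In these cells the summed erythroid markers were 472 to 11470 CPM in control and 8595 to 43330 CPM in anemic mice, and the macrophage markers 112 to 248 and 67.0 to 4281 CPM, with no gene of either list at 0, and their part was not tested. No gene of this list was called in large-vessel-endothelial-like or macrophage-like cells (16 tested in each, beside 0.815% and 2.95% of all genes).

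Across the 16 classes, other genes had levels much like those of the 9, as measured by Pearson's correlation of log2(mean CPM + 1) over classes among 13933 genes. This is a description over 16 points that share mice and libraries. Tek and Tie1 were each other's nearest gene (r = 0.99), followed by Abca4 and Fgd5 for Tek and by Adgrl4 and Abca4 for Tie1 (0.98 to 0.99). Sele was nearest to Gm49267, Ramp2 and Gm3364 (0.98 to 0.99), and Selp to Btnl9 (0.90), Sncaip (0.87) and Gm30382 (0.86). Icam1 was nearest to Arfip1, Chpf2 (both 0.95) and Exoc6b (0.93), and Icam2 to Scn4a (0.95), Cd93 (0.94) and Gm46565 (0.93). Scn4a lies on the same strand as Icam2, 24368 bp away. Vcam1 was nearest to Ptprm (0.94), Mertk (0.93), a macrophage receptor for dying cells, and Pald1 (0.92). Angpt1 was nearest to Gm15261 (0.89), Cercam (0.87) and Lrrtm3 (0.86), and Angpt2 to Mapk11, Gm3364 and Armcx4 (each 0.96).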

How the data were processed

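Liver cells of 6 control and 6 anemic mice were profiled by droplet 3′ single-cell RNA-seq. The deposited matrices hold UMI counts per gene and cell, made by the authors with Cell Ranger 7.0.0 (matrix headers), and the submitters' processing notes name Seurat and mm10. The sources name the library kit's version differently, and the strand setting is not given in the sources used here.

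As in the study, cells were kept with 500 to 50000 UMIs and at most 50% of them mitochondrial. After 20 principal components of 2000 variable genes, without the 9 genes and the listed pathway genes, cells were clustered by Leiden (resolution 2, 20 neighbours). A cluster was named from at least 3 raised markers, and clusters led by markers of another class stayed unnamed. The class names are rebuilt here and may differ from the study's. Doublets were scored from simulated pairs (0.8% per 1000 barcodes) and kept, with an alternative without them.

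UMIs were summed per mouse and class. Genes averaging 5 UMIs or more per mouse, without mitochondrial and ribosomal protein genes, were tested by edgeR 4.0.16 (R 4.3.3) with TMM and the quasi-likelihood test, and p-values were adjusted by Benjamini-Hochberg over all genes of the class. The SE is the log2 fold change divided by the square root of F. Levels are CPM of the class without TMM. Levels of 1 gene were compared between classes, and effects between classes, by exact permutation tests on log2 CPM with 0.5 UMI added. On simulated counts in sinusoidal-endothelial-like cells (16099 genes), edgeR recovered 76 of 100 genes changed by 1 and 95 of 100 changed by 2 on the log2 scale, with 15 false calls. In stellate-like cells (8929 genes) it recovered 52 and 91 of 100, with 6 false calls. For large-vessel-endothelial-like cells (11783 genes) the values were 66 and 98 of 100, with 7 false calls. For macrophage-like cells (14318 genes) they were 66 and 93 of 100, with 9 false calls.

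The alternatives were DESeq2 1.42.0, no TMM, other count minimums (none and 50), a block for the replicate number, a covariate for Y-linked expression, at most 10% mitochondrial UMIs, no doublets, Leiden resolution 1 and each mouse left out. The 9 genes, the lists and the rule for the genes named (the 9 genes, up to 4 called genes of a list and class by log2 fold change, and the 3 nearest genes by correlation over classes) were chosen with earlier results of these data known. The p-values take mice, not cells, as the unit, and the paired tests of levels between classes run over mice of both groups. Python 3.11.15, numpy 2.4.6, scipy 1.17.1, pandas 2.3.3, scikit-learn 1.9.0, igraph 0.11.9 and matplotlib 3.10.9 were used.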

Additional observations from a re-analysis of the deposited data

Results flagged for a closer look

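Among 60 groups of 6 mice (a gene in 1 of the 4 classes and 1 condition), 10 had a mouse far from the others by Dixon's test, against about 5% of groups by chance. Anemic mouse 2 gave 5 of them, which share its cells: Vcam1 was at 520 CPM in sinusoidal-endothelial-like cells (next 242), at 698 CPM in large-vessel-endothelial-like cells (next 324), at 461 CPM in stellate-like cells (41 cells, 53 UMIs) and, in the opposite direction, at 354 CPM in macrophage-like cells (next 936), and Icam2 was at 505 CPM in large-vessel-endothelial-like cells (next 326). Anemic mouse 5 had 99.0 CPM of Angpt2 in sinusoidal-endothelial-like cells (next 40.6). Control mouse 2 had 16.6 CPM of Angpt2 in the same class (next 13.1), and anemic mouse 1 had 1.73 CPM of Angpt1 there, from 20 UMIs. In large-vessel-endothelial-like cells, control mouse 3 had 424 CPM of Icam1 (next 335) and anemic mouse 6 had 345 CPM of Tie1 (next 283).

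Outside the named classes, Icam2 reached 691.3 CPM in an unnamed cluster of 262 cells led by Prg4, Serpinb2 and Alox15, above its level in both endothelial classes. The same cluster had 190.2 CPM of Selp, and the doublet score called 67.2% of its cells. Angpt2 reached 35.3 CPM in an unnamed cluster of 507 cells led by the smooth muscle genes Acta2, Tagln and Myh11, of which 79.5% were called doublets. These are sums over all mice, with no test.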

How the results depend on the processing

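Over 84 gene and class pairs, 1788 alternative values were computed. Of these, 1761 kept the direction and the side of the threshold (or were uncalled in both), 16 lost a call and 10 gained one. In 1 more, Icam1 within cluster 7, the sign reversed and the call was lost. Among the 1761, 143 uncalled values had the other sign. The calls of Sele, Selp, Icam1 and Vcam1 in sinusoidal-endothelial-like cells and of Icam1 and Vcam1 in hepatocyte-like cells were made in 21 of 21 other settings each, and that of Angpt2 in 11 of 21 (log2 fold change 0.73 to 1.67, adjusted p 0.0168 to 0.111). Within hepatocyte-like clusters, chosen after the data were seen, Icam1 was not called in cluster 23 (−0.35) or in the other 4 clusters (−0.81), and Vcam1 was called in the latter alone. Within cluster 7, 2 genes were called in place of 5: Icam1 reversed to −0.087, Vcam1 was at 0.37 and Angpt2 at 1.23. With 1 mouse left out, 4 to 5 genes were called in sinusoidal-endothelial-like cells, 0 to 1 in stellate-like cells, 2 to 3 in the other classes, and 0 to 6 differences between classes. The genes called were not always the same. Without control mouse 3, Icam2 was called in sinusoidal-endothelial-like cells (0.41 ± 0.14, edgeR, adjusted p = 0.0496) and Angpt2 was not (adjusted p = 0.0586). In stellate-like cells 1 gene, Angpt1, was called without TMM and without a count minimum. In the other classes 7 were called at Leiden resolution 1, all in hepatocyte-like cells, where 56.0% of all genes were called at that setting. With 2 UMIs added, 4 differences between classes passed, 1 of which rests on few UMIs as described above. The counts of large-vessel-endothelial-like and macrophage-like cells stayed at 0, and 8 genes kept a highest class past the threshold, under every alternative run. The cause of these changes was not tested.

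The replicate numbers of the labels are not tied to a litter. Mice of the same number had correlated deviations of −0.05 to 0.53 (10671 genes, sinusoidal-endothelial-like), with none the best match, and of −0.07 to 0.45 in macrophage-like cells (9310 genes), with number 1 the best match of its own. Not each was above 0.1 in either class, so the numbers were not taken as pairs. With the replicate block, 4 genes were called in the sinusoidal class (Angpt2 1.02, adjusted p = 0.0636), 0 in each of the other 3 classes and 2 elsewhere, and over all genes 3003 in place of 3132 were called in the sinusoidal, 140 in place of 96 in the large-vessel, 155 in place of 154 in the stellate-like and 632 in place of 423 in the macrophage-like class. Among the 4 classes, stellate-like cells of anemic mice were the fewest, 455 with 8 in mouse 3.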

Other observations

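Angpt1 was also present in small unnamed groups of cells, as sums over all mice with no test. It stood at 413.8 CPM in 216 cells that were led by Rnf220, Mir155hg and Angpt1 itself and whose best marker score was for progenitors. Megakaryocyte-like cells, summed in the same way, had 414.5 CPM. Angpt1 stood at 368.1 CPM in 116 cells led by the granule enzyme genes Mpo and Ctsg and the basophil protease gene Mcpt8. It stood at 206.8 CPM in 58 cells led by Tnfsf11, Rnf220 and Tcf7, and at 290.3 CPM in 32 cells led by the mast cell protease genes Mcpt4, Cma1 and Tpsb2. In 41 cells led by the platelet genes Ppbp, Gp9 and Pf4 it stood at 287.2 CPM, beside 73.6 CPM of Selp. In an unnamed cluster of 3098 cells led by the matrix genes Mfap4, Col1a1 and Col1a2, Angpt1 averaged 44.1 ± 8.12 CPM in the control group and 51.9 ± 10.4 CPM in anemia (log2 fold change 0.28 ± 0.14, edgeR, adjusted p = 0.534), and 60.3% of its cells were called doublets.

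Icam1 stood at 185.5 CPM in an unnamed cluster of 6035 cells led by Csta3, Asprv1, Slc7a11 and Hcar2. The best marker score of this cluster was for neutrophils. At Leiden resolution 1 a cluster of 7486 cells led by Csta3 and Asprv1 was named neutrophil-like. The levels and tests of the neutrophil-like class (5883 cells, 13.7 CPM of Icam1) thus leave the cells of this unnamed cluster out. Vcam1 stood at 423.9 CPM in an unnamed cluster of 3254 cells led by Aif1 and Slc40a1.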
